A study of Mus musculus with 22 samples.

Results

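The genes described here are the sensors that recognise foreign or misplaced nucleic acid inside mouse cells, together with the proteins that pass on or answer their signal. They are Ifih1, Ddx58, Dhx58, Eif2ak2, Tlr3, Mavs, Zbp1, Irf3, Irf7 and Adar, that is 10 of the 30170 genes counted, and all 10 are among the 14520 genes that passed the filter on low counts. They were chosen by name because interferon-induced genes were high in W330R on days 2 to 6 of differentiation. The differences between genotypes on those days are therefore given as a description, with no test. RNA was sequenced from C3H 10T1/2 cells, a mouse mesenchymal stem cell line that becomes adipocyte-like when given a hormone cocktail. The lines expressed DNMT3A1, a de novo DNA methyltransferase, as the WT protein, as the W330R mutant or as the double mutant W330R-R181E. WT and W330R cells were sampled undifferentiated and on days 2, 4 and 6 of adipocyte differentiation, and W330R-R181E cells on days 2, 4 and 6, with 2 libraries for each of the 11 conditions. All differentiated cells received isobutylmethylxanthine, dexamethasone, insulin and troglitazone at the start and later insulin alone, and the undifferentiated cells received none of these. The labels do not say whether the replicates came from separate cell lines or cultures, so the p-values measure the spread between these libraries, which may be technical.

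Double-stranded RNA in the cytosol is bound by the helicases RIG-I (Ddx58) and MDA5 (Ifih1), which are tuned by LGP2 (Dhx58) and signal through the mitochondrial adaptor MAVS. Endosomal double-stranded RNA is bound by TLR3, and left-handed Z-form nucleic acid by ZBP1. These routes activate the transcription factors IRF3 and IRF7, which switch on interferon genes, and interferon in turn raises the transcription of several of the sensors themselves. PKR (Eif2ak2) halts translation when it binds double-stranded RNA, and ADAR edits adenosines in such RNA so that the sensors are less likely to be engaged.

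The promoters that hold an interferon-stimulated response element core are shown first, because such an element is the textbook link between interferon and the sensors. RefSeq promoters of the GRCm38.p6 build, each 300 bases long with 250 bases before and 50 after the gene start, were matched for 8 of the 10 genes, and Dhx58 and Zbp1 were not matched. The letters GAAANNGAAA were searched on both strands and were found in 3 of the 8 matched genes, Ifih1, Ddx58 and Eif2ak2. The same letters occurred in 3.44% of all 32851 promoters of that length and in 3.99% of the 27025 genes with a promoter. The Ifih1 promoter lies at chr2:62646206-62646505 on the minus strand, with the core 32 bases after the start. The Ddx58 promoter lies at chr4:40239776-40240075 on the minus strand, with the core on the opposite strand 2 bases after the start. The Eif2ak2 promoter lies at chr17:78882523-78882822 on the minus strand, with the core 18 bases after the start. The sequences are written 5′ to 3′ along each gene, and the capitals mark the core. A match is a description of letters, and no match says only that these letters are not in the window.
Ifih1: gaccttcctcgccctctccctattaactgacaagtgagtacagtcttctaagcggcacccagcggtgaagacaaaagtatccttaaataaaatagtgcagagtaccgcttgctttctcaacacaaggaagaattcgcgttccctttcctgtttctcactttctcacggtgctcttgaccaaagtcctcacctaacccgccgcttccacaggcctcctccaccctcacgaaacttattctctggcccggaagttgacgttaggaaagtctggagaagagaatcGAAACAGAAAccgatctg
Ddx58: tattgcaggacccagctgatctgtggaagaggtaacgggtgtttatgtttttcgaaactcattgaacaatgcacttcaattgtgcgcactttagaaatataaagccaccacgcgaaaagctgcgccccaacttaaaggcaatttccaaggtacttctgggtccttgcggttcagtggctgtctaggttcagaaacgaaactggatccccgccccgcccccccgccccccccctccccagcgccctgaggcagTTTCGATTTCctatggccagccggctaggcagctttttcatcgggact
Eif2ak2: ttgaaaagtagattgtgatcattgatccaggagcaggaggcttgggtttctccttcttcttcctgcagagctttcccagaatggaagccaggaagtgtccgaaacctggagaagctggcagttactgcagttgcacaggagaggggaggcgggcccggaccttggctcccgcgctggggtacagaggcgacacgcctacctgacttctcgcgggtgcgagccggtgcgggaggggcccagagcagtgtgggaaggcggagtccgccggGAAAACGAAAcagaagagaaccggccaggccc

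Total counts ran from 8859501 to 47453908 per library, with a median of 19355792, and 3 counts, taken as the smallest value a library can show, corresponded to 0.0583 to 0.347 CPM. CPM is the usual count scaled to library size, here the TMM-normalized size, and the floor covers counting error only. Dnmt3a lay between 316 and 347 CPM in the 4 undifferentiated libraries and between 68.5 and 322 CPM in the 18 later ones, and reads of the introduced and of the endogenous gene were not told apart. Of 10 macrophage markers, Tyrobp was at 0 in every library, Csf1r at 0 in 9 and Ptprc at 0 in 3, with at most 0.810 CPM of Ptprc. Cd68, Cd14 and Lyz2 were above 0 in every library and reached 16.1, 16.8 and 3.60 CPM. The sum over the 10 macrophage markers was 12.4 to 16.6 CPM in WT, 10.5 to 21.4 in W330R and 11.7 to 22.8 in W330R-R181E on days 2 to 6, most of it Cd68 and Cd14. The sum over 10 mesenchymal markers was 21010 to 23921 CPM in undifferentiated cells and 2964 to 16767 later. The sum over 10 adipocyte markers was 280 to 548 CPM in undifferentiated cells and lay between 4302 and 11633 in WT, between 2055 and 3487 in W330R and between 2498 and 5555 in W330R-R181E on days 2 to 6. In bulk RNA, fewer cells of a type and less RNA per cell cannot be told apart. The part that these markers, which differ between the genotypes, have in the values below was not tested.

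In undifferentiated cells the sensing genes were expressed at very different levels, and none of the 10 passed the test between W330R and WT. On the scale of CPM per kilobase of exon, the WT mean was 18.7 for Eif2ak2, 15.3 for Mavs, 6.88 for Adar and 6.82 for Ddx58. The same means were 3.34 for Irf3, 1.71 for Tlr3, 0.686 for Irf7, 0.453 for Dhx58, 0.190 for Ifih1 and 0.0628 for Zbp1. The kinase PKR, the adaptor, the editing enzyme and RIG-I therefore stood at the top of this order, and MDA5, LGP2 and ZBP1 at its foot. The neighbours Adar, at 6.94 and 6.82 in the 2 libraries, and Ddx58, at 6.89 and 6.75, did not differ beyond their spread.

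Between W330R and WT in undifferentiated cells, edgeR's quasi-likelihood test called 0 of the 10 genes at an adjusted p under 0.05, against 1.75% of all genes tested. It called 0 of the 10 at an unadjusted p under 0.05, and DESeq2 also called 0. Tlr3 had the largest difference, with 8.72 and 9.08 CPM in WT and 4.0 and 3.12 CPM in W330R. Its log2 difference was -1.32 ± 0.69 (SE, n = 2 and 2, edgeR adjusted p = 0.484), although the libraries did not overlap. Ddx58 was at 48.6 and 47.6 CPM in WT and 54.3 and 49.9 CPM in W330R, a log2 difference of 0.12 ± 0.51. Mavs differed by -0.05 ± 0.13 and Adar by -0.20 ± 0.40 on the log2 scale. Fitted on the 4 undifferentiated libraries alone, the test called 2 of the 10, Tlr3 and Adar, both lower in W330R. That fit called 4043 of the 14520 tested genes. Among the listed genes of the wider pathway, Nlrx1, a mitochondrial NOD-like protein, was higher in W330R, at 4.49 and 4.28 CPM against 1.14 and 1.29 in WT, a log2 difference of 1.83 ± 0.24 (edgeR adjusted p = 0.00150).

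**Figure D1:**
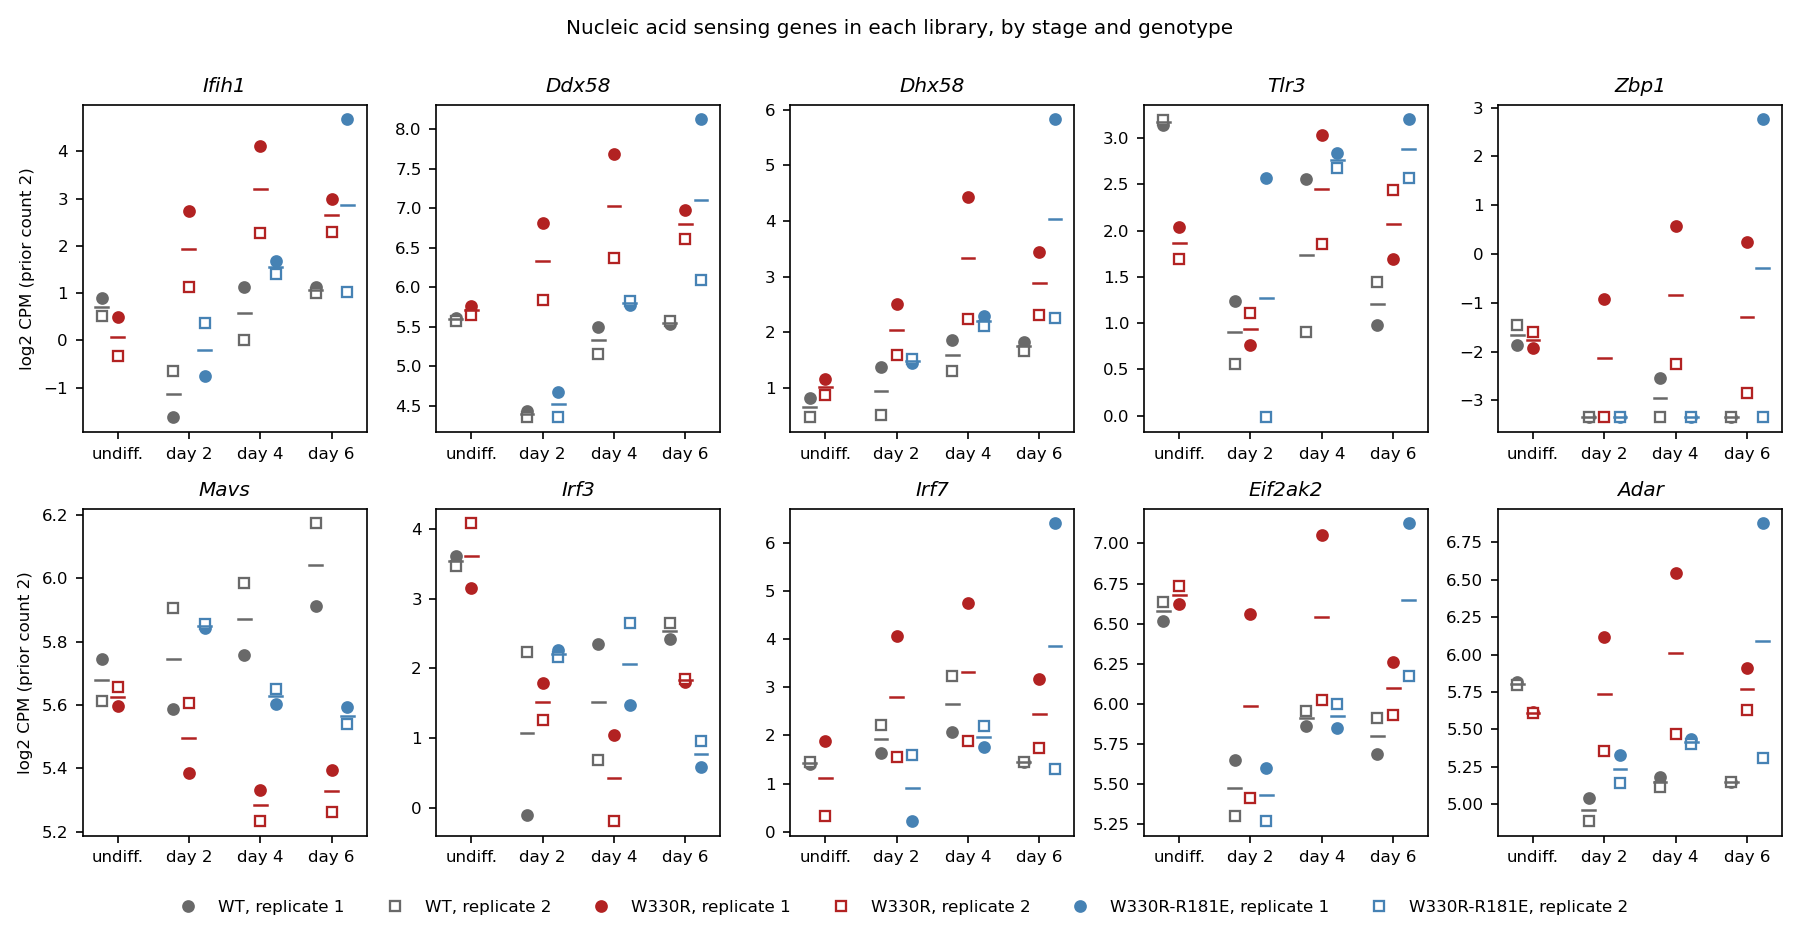
Level of each of the 10 genes in all 22 libraries as log2 CPM, by stage on the horizontal axis, with colours for genotype, filled circles for replicate 1, open squares for replicate 2 and short lines for the mean of the pair. Ifih1, Ddx58, Dhx58, Irf7, Eif2ak2 and Adar were higher in replicate 1 of W330R than in replicate 2 on all 3 days. Replicate 1 of W330R-R181E on day 6 was the highest library for 8 of the 10 genes, though level with an undifferentiated WT library for Tlr3.

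The step from undifferentiated cells to day 2 lowered 3 of the sensing genes in WT. Eif2ak2 went from 91.5 and 99.3 CPM to 49.99 and 39.3, a log2 change of -1.10 ± 0.37 (edgeR adjusted p = 0.0243). Tlr3 went from 8.72 and 9.08 CPM to 2.27 and 1.38, a log2 change of -2.30 ± 0.72 (adjusted p = 0.0153, edgeR). Irf3, the factor that first responds to the sensors, went from 12.1 and 10.95 CPM to 0.831 and 4.62, a log2 change of -2.04 ± 0.69 (adjusted p = 0.0225, edgeR). These 3 of 10 stand against 50.9% of all genes called in the same comparison. DESeq2 called 4 of the 10, adding Ddx58. Without either undifferentiated WT library, or without replicate 2 of WT day 2, 1 of the 10 was called, and without either day 6 library of W330R-R181E 5 were. In W330R the same step lowered Irf3 from 8.82 and 16.8 CPM to 3.37 and 2.28, a log2 change of -2.18 ± 0.69 (edgeR adjusted p = 0.0178). That was the only call among the 10 in W330R, where 48.2% of all genes were called, and it was lost without undifferentiated replicate 2 or without day 2 replicate 2. Without day 2 replicate 1, or without either day 6 library of W330R-R181E, 2 of the 10 were called. The columns of the undifferentiated libraries follow another naming pattern than those of the later days, so a batch cannot be told apart from this step. The day 2 libraries of WT and W330R are also among those that chose the members, so these calls are given as a description.

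On days 2 to 6 the RNA helicases were higher in W330R than in WT. Ifih1 (MDA5) stood between 0.227 and 2.10 CPM in the 6 WT libraries, with a median of 1.41, and between 2.09 and 17.3 CPM in the 6 W330R libraries, with a median of 5.69. The averaged log2 difference over the 3 days was 2.65 ± 0.56 (SE), and the ranges met, since the lowest W330R library was level with the highest WT libraries. Ddx58 (RIG-I) ran from 20.4 to 47.2 CPM in WT, with a median of 40.3, and from 56.9 to 206 CPM in W330R, with a median of 105. The 6 W330R libraries all lay above the 6 WT libraries, and the averaged log2 difference was 1.71 ± 0.30. Dhx58 (LGP2), which lacks the signalling domains of the other helicases, ran from 1.33 to 3.54 CPM in WT and from 2.93 to 21.6 CPM in W330R. Its log2 difference was 1.53 ± 0.50, and 1 W330R library, replicate 2 of day 2, lay within the WT range. Day by day, the fitted differences of Ifih1 were 3.40 ± 1.06, 2.88 ± 0.96 and 1.67 ± 0.91 on days 2, 4 and 6. Those of Ddx58 were 2.02 ± 0.52, 1.84 ± 0.52 and 1.26 ± 0.51, and those of Dhx58 were 1.16 ± 0.88, 2.14 ± 0.87 and 1.27 ± 0.84.

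The other sensors gave smaller or less even values. Tlr3 ran from 1.38 to 5.78 CPM in WT and from 1.60 to 8.08 CPM in W330R, a log2 difference of 0.52 ± 0.40 with overlapping ranges. Zbp1, the Z-form sensor that can start necroptosis, had 0 or 1 count in each of the 6 WT libraries. In W330R it had 8, 22 and 56 counts in replicate 1 on days 2, 4 and 6, and 0, 3 and 1 in replicate 2. These correspond to at most 1.4 CPM, and Zbp1 passed the filter through 3 libraries in which it was high, so no fitted difference is given. All of the Zbp1 signal above the floor of 3 counts in differentiated W330R cells came from the replicate 1 libraries.

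The adaptor moved the other way. Mavs stood at 47.95 to 72.1 CPM in WT, with a median of 60.0, and at 37.5 to 48.6 CPM in W330R, with a median of 40.98. The log2 difference was -0.52 ± 0.08 over the 3 days, and -0.26 ± 0.13, -0.59 ± 0.13 and -0.72 ± 0.13 on days 2, 4 and 6. The W330R and WT libraries of Mavs overlapped on day 2 and did not overlap on days 4 and 6. Across all tested genes, 2.52% had all 6 W330R libraries below all 6 WT libraries, and 0 of the 10 sensing genes did.

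Of the transcription factors, Irf7 was higher and Irf3 lower in W330R on average, neither evenly. Irf7, itself an interferon-induced gene, ran from 2.61 to 9.31 CPM in WT, with a median of 3.57, and from 2.82 to 26.7 CPM in W330R, with a median of 6.24. Its log2 difference was 1.24 ± 0.70, and the 3 W330R libraries of replicate 2, at 2.82, 3.59 and 3.24 CPM, all lay within the WT range. Irf3 ran from 0.831 to 6.17 CPM in WT and from 0.778 to 3.49 CPM in W330R, a log2 difference of -0.66 ± 0.39. Both enzymes that bind double-stranded RNA were higher on average. Eif2ak2 ran from 39.3 to 62.01 CPM in WT and from 42.4 to 133 CPM in W330R, a log2 difference of 0.54 ± 0.21 with overlapping ranges. Adar ran from 29.5 to 36.2 CPM in WT and from 40.8 to 93.5 CPM in W330R, a log2 difference of 0.80 ± 0.23 with the W330R libraries all above the WT libraries.

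The median log2 difference was 1.02 over the 10 genes and 0.80 over the 9 other than Zbp1, beside 0.02 over all tested genes. Over the 10 genes it was 0.58 without replicate 1 of W330R day 4, 0.65 without replicate 1 of W330R day 2, and at most 1.23 with any other library left out. All 6 W330R libraries lay above all 6 WT libraries for 2 of the 10 genes, Ddx58 and Adar, and for 2.73% of all tested genes. The replicate 1 libraries of W330R taken alone lay above all 6 WT libraries for 6 of the 10 genes, against 5.03% of all tested genes, and these were Ifih1, Ddx58, Dhx58, Eif2ak2, Zbp1 and Adar. The replicate 2 libraries alone did so for 2 of the 10, again Ddx58 and Adar, against 5.85% of all tested genes. Since these values chose the members, nothing is read from the shares.

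**Figure D2:**
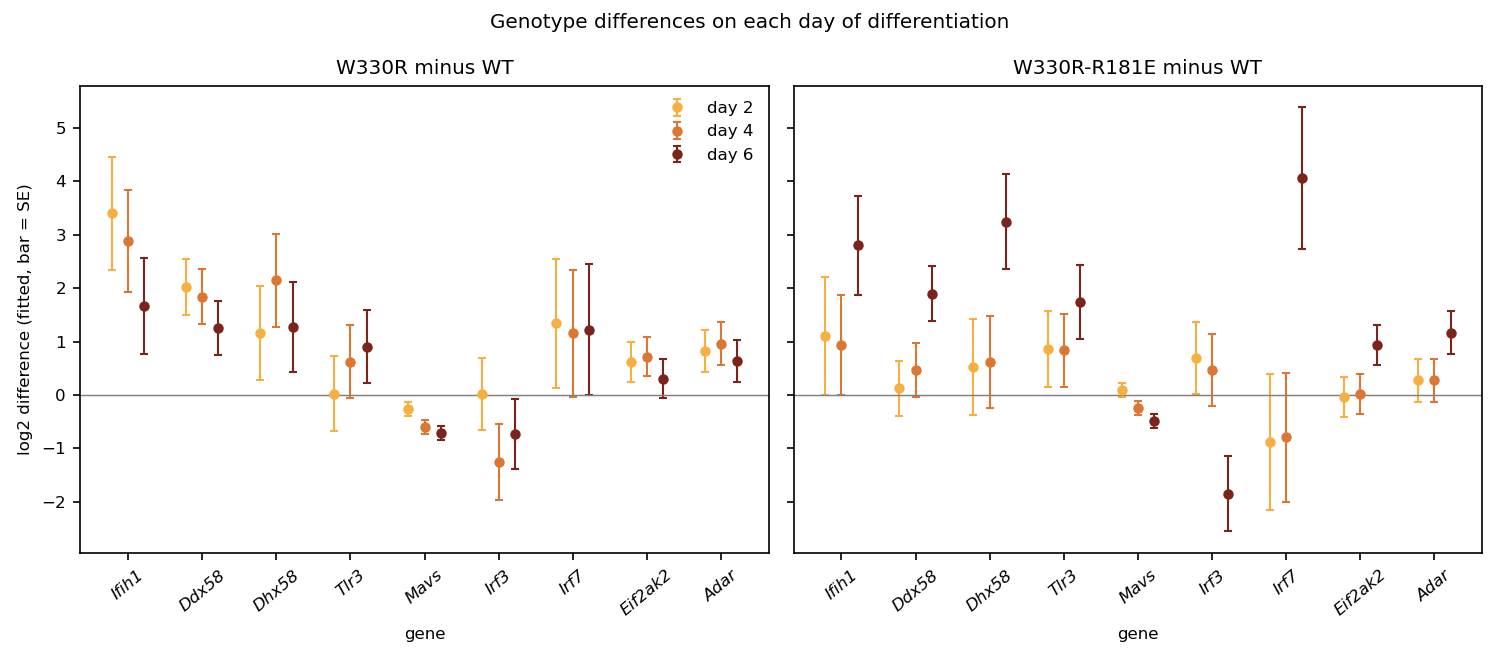
Fitted log2 difference from WT on days 2, 4 and 6 for the 9 genes with a fitted value, for W330R on the left and W330R-R181E on the right, with bars for the SE. The W330R differences go from 3.40 on day 2 to 1.67 on day 6 for Ifih1 and from 2.02 to 1.26 for Ddx58, and in W330R-R181E the differences of Ifih1, Ddx58, Dhx58, Irf7, Eif2ak2 and Adar are largest on day 6.

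The W330R replicates differed from each other in the same direction on each day. In replicates 1 and 2, Ifih1 stood at 6.57 and 2.09 CPM on day 2, at 17.3 and 4.74 on day 4 and at 7.85 and 4.80 on day 6. Ddx58 stood at 113 and 56.9 CPM, 206 and 82.3 CPM, and 126 and 97.7 CPM on the same days. Irf7 stood at 16.5 and 2.82 CPM, 26.7 and 3.59 CPM, and 8.88 and 3.24 CPM. In each of these 9 pairs the replicate 1 library was the higher one. Replicate 1 exceeded replicate 2 on all 3 days for 7 of the 10 genes in W330R, against 18.9% of all tested genes. Zbp1 is among these 7. It passed the filter through replicate 1 libraries only, those of W330R on days 4 and 6 among them, so its order was in part set by the filter. For WT this held for 2 of 10 genes, against 25.5%, and for W330R-R181E for 2 of 10 genes, against 19.8%. The median difference within the W330R pairs, replicate 1 minus replicate 2 in log2 CPM, was 0.94 on day 2, 1.28 on day 4 and 0.35 on day 6 over the 10 genes. Over all tested genes the corresponding medians were -0.01, -0.01 and 0.03, values that the scaling of the libraries keeps near 0.

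With the replicate 1 libraries alone the log2 difference between W330R and WT was 3.07 for Ifih1, 2.01 for Ddx58, 1.77 for Dhx58 and 2.27 for Irf7. With the replicate 2 libraries alone it was 1.78 for Ifih1, 1.25 for Ddx58 and 0.89 for Dhx58, and it was -0.57 for Irf7. These are the values that chose the members, so their sign is no sign of stability. Eif2ak2 went from 0.89 to 0.07 and Adar from 1.07 to 0.44, whereas Mavs went from -0.38 to -0.65. This split by replicate number was chosen after the values were seen, and the numbers are names that the labels give, with no batch stated.

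**Figure D3:**
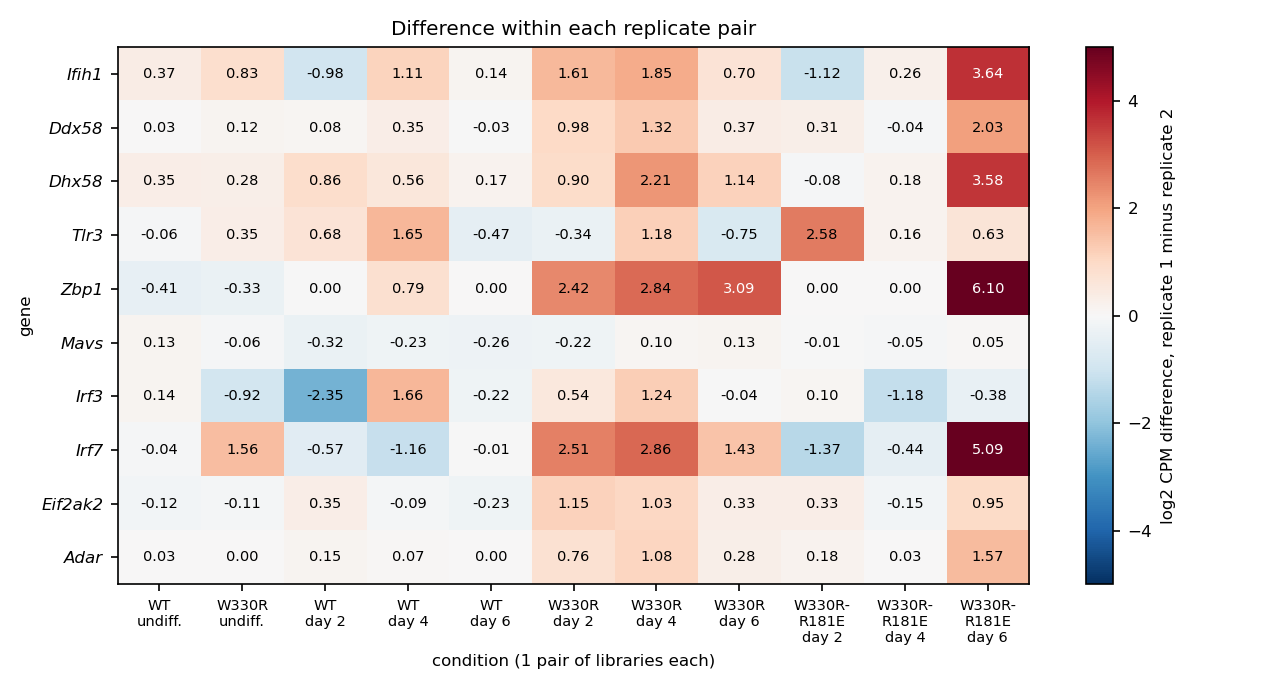
Difference within each replicate pair, replicate 1 minus replicate 2 in log2 CPM, for the 10 genes (vertical) and the 11 conditions (horizontal), with red for higher in replicate 1. Columns for W330R on days 2 and 4 and for W330R-R181E on day 6 hold most of the large positive values, up to 6.10 for Zbp1, and the row of Mavs stays between -0.32 and 0.13.

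In the double mutant W330R-R181E, the helicases and Irf7 were far higher in 1 library of day 6 than on days 2 and 4. Ddx58 stood at 25.4 and 20.5 CPM on day 2 and at 54.8 and 56.4 CPM on day 4, then at 278 CPM in replicate 1 and 67.9 CPM in replicate 2 on day 6. Ifih1 went from 0.493 and 1.19 CPM on day 2 and 3.10 and 2.57 on day 4 to 25.4 and 1.95 on day 6. Irf7 went from 1.07 and 2.92 CPM on day 2 and 3.28 and 4.48 on day 4 to 84.4 and 2.38 on day 6. In all 3 genes it was replicate 1 of day 6 that stood apart, while its partner lay within the range of days 2 and 4 for Ifih1 and Irf7 and above it for Ddx58. Dhx58 was at 56.6 and 4.66 CPM in the day 6 pair, Eif2ak2 at 139 and 72.0 CPM, and Adar at 117 and 39.5 CPM. Zbp1 had 287 counts, or 6.67 CPM, in replicate 1 of day 6 and 0 counts in each of the other 5 double mutant libraries.

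Replicate 1 of day 6 was the highest of the 22 libraries for 8 of the 10 genes, against 5.06% of all tested genes. For Tlr3, at 9.09 CPM, it was level with an undifferentiated WT library at 9.08 CPM. Zbp1 passed the filter through 3 libraries, of which this was 1. The exceptions were Mavs, highest in a WT day 6 library, and Irf3, highest in an undifferentiated W330R library. In the day 6 pair of the double mutant, replicate 1 held 40904296 counts and replicate 2 held 8859501, the lowest total of the series. The adipocyte markers summed to 2498 CPM in replicate 1 and to 4083 in replicate 2. The part of depth and of differentiation in this difference was not tested.

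Averaged over days 2 to 6, the log2 difference between W330R-R181E and WT was 1.61 ± 0.57 for Ifih1, 0.83 ± 0.29 for Ddx58, 1.46 ± 0.50 for Dhx58 and 0.57 ± 0.23 for Adar. It was 1.14 ± 0.40 for Tlr3, 0.80 ± 0.71 for Irf7, 0.30 ± 0.21 for Eif2ak2, -0.21 ± 0.08 for Mavs and -0.23 ± 0.39 for Irf3. The median over the 10 genes was 0.81 with all libraries and 0.17 without replicate 1 of day 6, beside 0.00 over all tested genes. For 0 of the 10 genes did all 6 double mutant libraries lie above all 6 WT libraries, and 0.730% of all tested genes did so. On day 2 the difference from WT was 0.13 ± 0.52 for Ddx58 and 1.11 ± 1.11 for Ifih1, and on day 4 it was 0.47 ± 0.50 and 0.93 ± 0.94. Each of these values was about as large as its SE or smaller.

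Set against W330R and averaged over the same days, the double mutant was lower for Ifih1, by a log2 difference of -1.04 ± 0.52, and for Ddx58, by -0.88 ± 0.29. Mavs was higher in the double mutant, by 0.31 ± 0.08, with 46.5 to 57.8 CPM in its 6 libraries. Dhx58 differed by -0.07 ± 0.48, Eif2ak2 by -0.24 ± 0.21, Adar by -0.23 ± 0.23, Irf7 by -0.44 ± 0.69, Irf3 by 0.43 ± 0.40 and Tlr3 by 0.63 ± 0.39. The median over the 10 genes was -0.24, and it ran from -0.77 without replicate 1 of the double mutant's day 6 to 0.11 without replicate 1 of W330R day 4. Day by day the sign was not the same. The difference of Ifih1 was -2.30 ± 0.97 on day 2, -1.95 ± 0.90 on day 4 and 1.13 ± 0.86 on day 6, and that of Ddx58 was -1.89 ± 0.52, -1.37 ± 0.51 and 0.64 ± 0.50. Irf7 went from -2.22 ± 1.27 and -1.95 ± 1.22 to 2.84 ± 1.23, and Dhx58 from -0.64 ± 0.86 and -1.53 ± 0.84 to 1.97 ± 0.84. The day 6 values include the replicate 1 library that stands apart. The comparisons of the double mutant with WT and with W330R share libraries with those of W330R with WT, and they carry no test here.

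The change from day 2 to day 6 within each genotype is not the contrast that chose the genes, and was tested. In WT and W330R it is drawn from libraries that chose them, so the tests with those libraries are not independent of the choice. In the double mutant 5 of the 10 genes rose, against 23.2% of all genes called in either direction. Ddx58 rose by 2.93 ± 0.54 (SE, log2, n = 2 and 2, edgeR adjusted p = 0.00216). Ifih1 rose by 3.99 ± 1.01 (adjusted p = 0.0123, edgeR) and Dhx58 by 3.51 ± 0.91 (adjusted p = 0.0139). Eif2ak2 rose by 1.29 ± 0.38 (edgeR, adjusted p = 0.0240) and Irf7 by 4.41 ± 1.36 (adjusted p = 0.0311). The 3 cytosolic helicases, PKR and the interferon-induced factor were thus the members called. Adar, with a change of 1.08 ± 0.40, missed the threshold (edgeR adjusted p = 0.0652), as did Irf3 at -1.51 ± 0.71 and Mavs at -0.28 ± 0.13 (adjusted p = 0.137 for both, edgeR). DESeq2 called 7 of the 10, adding Adar and Zbp1, which had 0 counts in both day 2 libraries. The share of all genes that DESeq2 called is not given here.

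Most of these calls rested on 1 library. Without replicate 1 of day 6, Ddx58 was the 1 gene of the 10 still called, with a rise of 1.57 ± 0.42 (edgeR adjusted p = 0.0304). Ifih1 then changed by 1.16 ± 0.89, Dhx58 by 0.78 ± 0.74, Eif2ak2 by 0.73 ± 0.41 and Irf7 by 0.22 ± 1.23, and edgeR's adjusted p lay between 0.261 for Eif2ak2 and 0.932 for Irf7. Without replicate 2 of day 2 the call was also made for Ddx58 alone, without replicate 1 of day 2 for Ddx58, Eif2ak2 and Tlr3, and without replicate 2 of day 6 for 7 of the 10. With 1 library left in a condition, that library is assumed to vary like the others. Without replicate 1 of day 6 fewer of all tested genes were called too, so lost calls are not particular to the members. The share of all genes called is not set beside these counts, so the call that Ddx58 kept is not read as a result about it. Fitted on the double mutant's day 2 and day 6 libraries alone, 0 of the 10 were called, and 79 of the 14520 tested genes.

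In WT, edgeR called 0 of the 10 genes from day 2 to day 6, against 26.6% of all genes, with 3 at an unadjusted p under 0.05 and 0 by DESeq2. Those 3 were Ifih1 with a log2 change of 2.30 ± 1.06, Ddx58 with 1.16 ± 0.52 and Mavs with 0.29 ± 0.13. The share of all genes under that unadjusted threshold is not given, so nothing is read from the count. The lowest adjusted p by edgeR was 0.113, for Ddx58, which went from 21.5 and 20.4 CPM to 46.1 and 47.2. Without replicate 2 of WT day 2, or without either day 6 library of W330R-R181E, 2 of the 10 were called. In W330R, edgeR called 0 of the 10, against 25.0% of all genes, with 0 at an unadjusted p under 0.05 and 0 by DESeq2. There Ddx58 changed by 0.40 ± 0.50, Ifih1 by 0.56 ± 0.87 and Adar by -0.01 ± 0.39, with the lowest adjusted p at 0.227, for Tlr3 (edgeR).

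Whether the change differed between genotypes was tested as an interaction. For W330R minus WT, edgeR called 0 of the 10 genes, against 0.0895% of all genes, with 1 at an unadjusted p under 0.05, Mavs at -0.46 ± 0.19, and 0 by DESeq2. For W330R-R181E minus WT, edgeR called 0 of the 10, against 0.0413% of all genes, and DESeq2 called 0. In that comparison 5 of the 10 had an unadjusted p under 0.05, namely Irf7 at 4.95 ± 1.80, Dhx58 at 2.72 ± 1.24, Ddx58 at 1.77 ± 0.72, Irf3 at -2.55 ± 0.98 and Mavs at -0.58 ± 0.19. The share of all tested genes at an unadjusted p under 0.05 is not given here, so nothing is read from these counts of 1 and 5. The lowest adjusted p for W330R-R181E minus WT was 0.601, for Mavs (edgeR). The rises in the double mutant are therefore not shown to differ from the changes in WT.

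**Figure D4:**
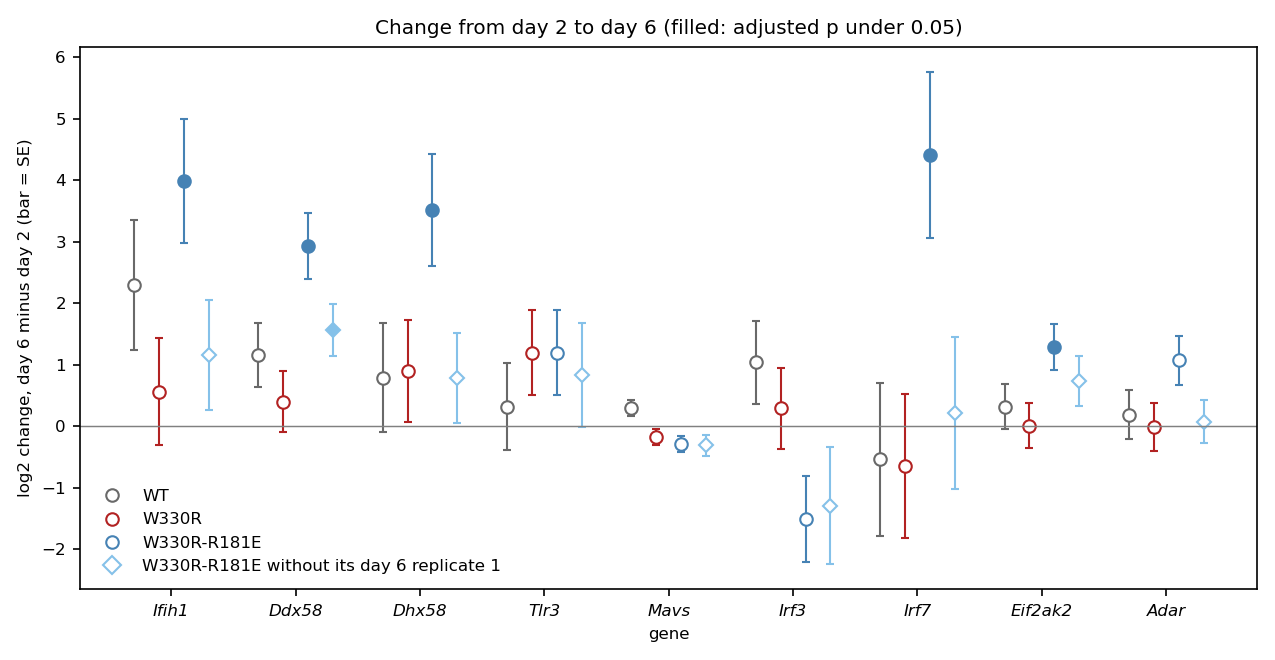
Log2 change from day 2 to day 6 in WT, W330R and W330R-R181E for the 9 genes with a fitted value, with bars for the SE and filled symbols for an adjusted p under 0.05. The 5 filled circles all belong to W330R-R181E, and among the diamonds, which leave out its day 6 replicate 1, Ddx58 alone is filled.

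The wider pathway was followed in lists of related genes. In the double mutant from day 2 to day 6, 9 of 11 interferon-stimulated reporter genes that passed the filter rose and 0 fell, and Ifit3, an effector that binds viral RNA, rose by 8.97 ± 1.76 (edgeR adjusted p = 0.00313). Isg15, a ubiquitin-like modifier, stood at 0.328 and 0.149 CPM on day 2 and at 126 and 1.62 CPM on day 6. Of 13 other RNA sensors and antiviral effectors, 9 rose and 1 fell. Oas2, which makes the messenger that activates RNase L, was at 0.0990 CPM or less on day 2 and at 47.8 and 0.325 CPM on day 6. As with the sensing genes, replicate 1 of day 6 was the higher library of the pair in both genes. Without it, the median change over the 13 RNA sensors was 0.38, against 2.69 with all libraries. Over the 11 reporter genes it was 2.39 without that library, against 6.93. The counts of 9 of 11 and 9 of 13 therefore rest largely on that library.

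Other lists of the signalling chain are set beside the 23.2% of all genes called in the same comparison, and the lists were not tested against each other. That share was lower without replicate 1 of day 6. Of 16 adaptors, ubiquitin ligases and kinases, 4 rose and 1 fell in the double mutant from day 2 to day 6, and the kinase subunit Chuk fell by 0.52 ± 0.13 on the log2 scale (edgeR adjusted p = 0.00961). Among the interferon receptors and STAT signalling genes, Stat2 rose by 1.91 ± 0.57 (edgeR adjusted p = 0.0280). Of 4 other interferon regulatory factors, 2 rose, Irf9 by 2.54 ± 0.68 and Irf1 by 1.08 ± 0.22 (edgeR adjusted p = 0.0163 and 0.00403). Of 8 DNA sensors 2 rose, and of 5 cell death partners of ZBP1 Mlkl rose by 1.98 ± 0.34 and Casp8 fell by 0.88 ± 0.28 (edgeR adjusted p = 0.00141 and 0.0374). Of 10 genes for nucleic acid clearance and editing 2 rose and 1 fell, Adarb1, a relative of Adar, by 2.27 ± 0.39 (adjusted p = 0.00153, edgeR). Without replicate 1 of day 6, edgeR called neither Stat2, Chuk and Casp8 nor any of the 4 regulatory factors and 8 DNA sensors. It then called 2 of the 16 adaptors, ubiquitin ligases and kinases as higher, 1 of the 5 cell death partners as higher, and 1 clearance gene in each direction.

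In WT over the same days, 1 of the 11 reporter genes and 3 of the 13 RNA sensors rose, and in W330R 1 of each. The median change over the reporter genes was 6.93 in the double mutant and 2.39 there without replicate 1 of day 6. The interferon genes themselves gave almost no counts. Ifnl2, Ifnl3 and Ifng were at 0 in all 22 libraries, Ifnb1 had 1 count in 1 library, and Ifna4 had at most 2 counts, all at or under the floor of 3.

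Within the W330R pairs the reporter genes also differed. Replicate 1 was higher for 10 of 11 reporter genes on day 2, for 11 of 11 on day 4 and for 10 of 11 on day 6, with median log2 differences of 2.22, 3.01 and 1.57. Isg15, for example, stood at 31.6 and 3.45 CPM in the W330R day 4 pair. The 16 adaptors, ubiquitin ligases and kinases had medians of -0.10, -0.05 and 0.01 within the same pairs. The medians over the 5 macrophage markers that passed the filter were 0.16, 0.39 and -0.06.

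Across the 22 libraries the members followed each other unevenly, which is given as a description, since the libraries share conditions and replicate pairs. Pearson's r of log2 CPM was 0.94 between Ifih1 and Ddx58 and 0.87 between Ifih1 and Dhx58, and -0.63 between Ddx58 and Mavs. The genes most like Ifih1, among 11154 with sufficient expression, were Gbp3, Bst2 and Gbp7 (r = 0.956, 0.947 and 0.943). Those most like Ddx58 were Parp12, H2-T22 and Igtp (r = 0.975, 0.970 and 0.962), and those most like Adar were Stat2, Ifit1 and Ifi44. Irf9 was most like Dhx58 (r = 0.914), Herc6 most like Eif2ak2 (r = 0.927), Ifi35 most like Irf7 (r = 0.915) and Adar most like Zbp1 (r = 0.930). Zbp1 lay at or under the floor in most libraries. Its r therefore rests largely on the few libraries above the floor, and nothing is read from it. Mavs, Irf3 and Tlr3 had other neighbours, namely Dolpp1 (r = 0.893), AU021092 (r = 0.782) and Farp1 (r = 0.855).

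Some of the counts could be shared with neighbouring genes, since the sources do not say whether strand was used in counting. In the GENCODE annotation, 16.8% of the exon bases of Adar overlap Chrnb2 on the opposite strand, 7.32% of those of Tlr3 overlap Gm45542 and 4.31% of those of Dhx58 overlap Dhx58os. Eif2ak2 shares 3.40% with Gm26637 and 0.919% with n-R5s29, both on the opposite strand. Irf3 shares 2.56% with Bcl2l12 and Irf7 1.19% with Phrf1, and Ifih1, Ddx58, Mavs and Zbp1 overlap no other exon. Of the stretches of 50 bases in each gene, at most 0.393% also occur in another gene.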

How the data were processed

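RNA was sequenced from 22 libraries, and the authors deposited whole read counts per gene symbol, without normalization. The labels' processing notes name kallisto, DESeq2 (version 1.40) and GRCm39, with no role given. The annotation and the use of strand are not given in the sources used here. The deposited columns call the double mutant R181A where the labels say R181E, and columns were matched to libraries by genotype, day and replicate number. The members and all gene lists were chosen with earlier results of these data known.

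From the counts, 14520 of 30170 genes were kept with filterByExpr (minimum count 10, minimum total count 15) and scaled by TMM. The main test was edgeR's quasi-likelihood test (version 4.0.16, R 4.3.3) with a mean for each of the 11 conditions, fitted on all 22 libraries, with Benjamini-Hochberg adjustment over 14520 genes and a threshold of 0.05. The SE is the absolute log2 difference divided by the square root of F. Log2 CPM used a prior count of 2. Where both libraries of a condition had 3 counts or fewer, no fold is given. All 10 members are named. From each list at most the 2 called genes that rose most and the 2 that fell most are named, and for each member the 3 genes with the highest correlation, where the average log2 CPM was 1 or more. Isg15 is also shown in the W330R pair, which was chosen after its values were seen.

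The fit was tested on simulated data. Alternatives were DESeq2 (version 1.42.0), RLE scaling, no filter on low counts, a fit on the contrasted conditions alone, a replicate block, and fits lacking 1 library each. Samples with the same replicate number deviated together in 27 of 55 pairs of conditions (correlation over 0.1), with a mean correlation of 0.137. The main test did not pair the libraries by these numbers, and a replicate block was fitted as an alternative. Promoters came from RefSeq tables (GRCm38.p6) and exon overlaps from a GENCODE annotation, which was used for lengths and neighbours only, since the builds differ. Figures were drawn with matplotlib 3.10.9. A result for 1 gene of these lists is not reported here.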

Additional observations from a re-analysis of the deposited data

Results flagged for a closer look

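From undifferentiated cells to day 2, both WT libraries of Ifih1 moved down and both W330R libraries moved up. The WT levels went from 1.76 and 1.34 CPM to 0.227 and 0.541, and the W330R levels from 1.31 and 0.694 CPM to 6.57 and 2.09. The W330R change exceeded the WT change by 3.99 on the log2 scale, and this difference was not tested, since the W330R and WT libraries of day 2 chose the members.

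Ddx58 moved in the same opposite way, from 48.6 and 47.6 CPM to 21.5 and 20.4 in WT and from 54.3 and 49.9 CPM to 113 and 56.9 in W330R. The difference of the changes was 1.90 on the log2 scale and was not tested.

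Irf3 moved up in both W330R libraries from day 2 to day 6, from 3.37 and 2.28 CPM to 3.40 and 3.49, and down in both W330R-R181E libraries, from 4.68 and 4.36 CPM to 1.39 and 1.84. The W330R-R181E change differed from the W330R change by -1.80 on the log2 scale, which was not tested, and the lowest W330R day 6 library was level with the highest of day 2.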

How the results depend on the processing

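No value of the 10 genes reversed among called results under any alternative run, and DESeq2, RLE scaling and no filter left every count of called members within 1.5 times. Fitted on the contrasted conditions alone, the test called 2 members between W330R and WT in undifferentiated cells (0 with all libraries), 1 from day 2 to day 6 in WT (0) and 0 in W330R-R181E (5). The replicate block assumes a pairing that 27 of 55 pairs of conditions showed (correlation over 0.1). With it, the test called 1 member from day 2 to day 6 in WT (Ddx58). From undifferentiated cells to day 2 in WT it called 5 (3 without it). The block left the other 6 counts of called members within 1.5 times.

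Leaving out each library in turn, the members called ranged from 0 to 2 for day 6 against day 2 in WT, from 1 to 7 in W330R-R181E, from 1 to 5 for day 2 against undifferentiated in WT and from 0 to 2 in W330R. The highest counts in the WT and W330R comparisons included those without a day 6 library of W330R-R181E, whose pair enters the shared spread. The median log2 difference from WT ranged from 0.58 to 1.23 in W330R, that in W330R-R181E from 0.17 to 1.08 and that from W330R from -0.77 to 0.11. With the replicate 2 libraries alone, chosen after seeing the data, the W330R-R181E median was 0.16.

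Counts over all genes moved more. Between W330R and WT in undifferentiated cells they were 254 in the test reported, 528 by DESeq2, 4043 on the 4 libraries alone and 392 with the block. From day 2 to day 6 they were 3862 in WT and 3369 in W330R-R181E, and 843 and 79 on the contrasted conditions alone. For the interaction of W330R they were 13, against 129 by DESeq2, 33 without the filter, 0 on the contrasted conditions and 24 with the block. For that of W330R-R181E they were 6, against 0 by RLE, 70 by DESeq2, 0 on the contrasted conditions and 12 with the block.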
